A study of Mus musculus with 2 samples.

Results

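The miR-26 family of the mouse consists of 3 miRNA genes, Mir26b, Mir26a-2 and Mir26a-1, and all 3 had a count in both libraries among the 1973 miRNA genes measured. They were found by matching Ensembl identifiers, without their version, to gene symbols of the GENCODE M21 annotation. The libraries were microRNA-seq libraries from the neural tube of B6NCrl embryos at embryonic day 14.5, with no treatment, genotype or second tissue named. Replicate 1 came from pup 1 of dam 1 and replicate 2 from pup 1 of dam 2, so the design held 1 group of 2 libraries. The labels call each sample a single neural tube and also give mixed sex, and which of these holds was not settled here. With 1 library per dam there was no contrast between conditions, and no p-value is given.

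MicroRNAs guide Argonaute proteins to messenger RNAs, mainly by pairing of the seed, bases 2 to 8 counted from the 5′ end, with sites in 3′ untranslated regions (UTRs). The miR-26 genes lie in introns of genes for small phosphatases that act on the C-terminal domain of RNA polymerase II. These phosphatases are recruited with REST, a repressor that silences neuronal genes outside neurons and in neural progenitors. In zebrafish, miR-26b was described to act on the phosphatase made by its own type of host gene, ctdsp2, as neurons form.

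The mature sequences are shown because they decide which reads can be assigned to which gene. They are RefSeq sequences on GRCm38.p6, the build also called mm10, written 5′ to 3′ with the seed in capitals, and all 3 genes had an entry.
miR-26b-5p, Mir26b, chr1:74394324-74394344, plus strand: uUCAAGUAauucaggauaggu
miR-26a-5p, Mir26a-2, chr10:126995543-126995564, and Mir26a-1, chr9:119031811-119031832, both plus strand: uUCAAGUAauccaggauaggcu
miR-26b-3p, Mir26b, chr1:74394360-74394381, plus strand: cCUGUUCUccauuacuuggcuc
miR-26a-2-3p, Mir26a-2, chr10:126995581-126995602, plus strand: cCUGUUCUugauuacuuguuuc
miR-26a-1-3p, Mir26a-1, chr9:119031850-119031871, plus strand: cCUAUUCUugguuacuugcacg

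All members had the 5p seed UCAAGUA, and no mature miRNA of another gene in the RefSeq table had it. Mir26a-2 and Mir26a-1 had an identical 5p sequence of 22 bases. Over the 21 bases of miR-26b-5p, miR-26a-5p differed from it by 2 substitutions, C11U and C21U, with positions counted from 1 at the 5′ end, the base of miR-26a-5p first and that of miR-26b-5p last. The 3p sequences differed more. MiR-26a-1-3p differed from miR-26a-2-3p at 6 of 22 positions, among them A4G within the seed, and miR-26a-2-3p differed from miR-26b-3p at 4 positions outside the seed. The 3p seed CUGUUCU of Mir26b and Mir26a-2 also occurred in miR-6932-3p and miR-7039-3p. Both were near the floor, Mir6932 at 2 reads in replicate 1 and 1 in replicate 2 and Mir7039 at 2 reads in each.

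The hairpins show how far the identity between the Mir26a copies reaches. Capitals mark the longest run that Mir26a-2 and Mir26a-1 share and, in Mir26b, the 5p miRNA.
Mir26b, chr1:74394310-74394394, plus strand: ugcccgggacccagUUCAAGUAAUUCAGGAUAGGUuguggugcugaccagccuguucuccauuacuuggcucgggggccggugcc
Mir26a-2, chr10:126995530-126995613, plus strand: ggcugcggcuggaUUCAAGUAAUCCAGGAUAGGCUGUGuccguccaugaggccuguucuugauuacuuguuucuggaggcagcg
Mir26a-1, chr9:119031796-119031885, plus strand: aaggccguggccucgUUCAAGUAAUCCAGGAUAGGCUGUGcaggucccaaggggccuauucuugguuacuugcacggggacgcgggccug

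The shared run of Mir26a-2 and Mir26a-1 was 25 bases long, from the first base of miR-26a-5p to 3 bases past its end. A read that starts and ends within that run fits both loci. The longest run of Mir26b in common with Mir26a-1 was 11 bases and that with Mir26a-2 was 10 bases. Hairpins outside the family shared at most 11 bases with Mir26b, 11 with Mir26a-2 and 10 with Mir26a-1. Over aligned hairpins the identity was 72.5% between the Mir26a copies, 68.8% between Mir26a-1 and Mir26b, and 67.4% between Mir26a-2 and Mir26b.

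Each member lay on the strand of its host gene, in an intron of the host's principal transcript. Mir26b (ENSMUSG00000065468) lay in intron 4 of the 6 introns of Ctdsp1, an intron of 564 bases, 2801 bases from the transcript start. Mir26a-2 (ENSMUSG00000065430) lay in intron 5 of the 7 introns of Ctdsp2, 1946 bases long, and 16813 bases from the start. A shorter annotated protein-coding transcript of Ctdsp2 begins at position 126995613, which is the last base of the Mir26a-2 hairpin, so the hairpin overlaps that exon by 1 base. Mir26a-1 (ENSMUSG00000065513) lay in intron 5 of the 7 introns of Ctdspl, 3283 bases long, and 105343 bases from the start. The map of the host genes shows that each member sits past the middle of the host's series of introns, while the hosts differ in length.

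**Figure D1:**
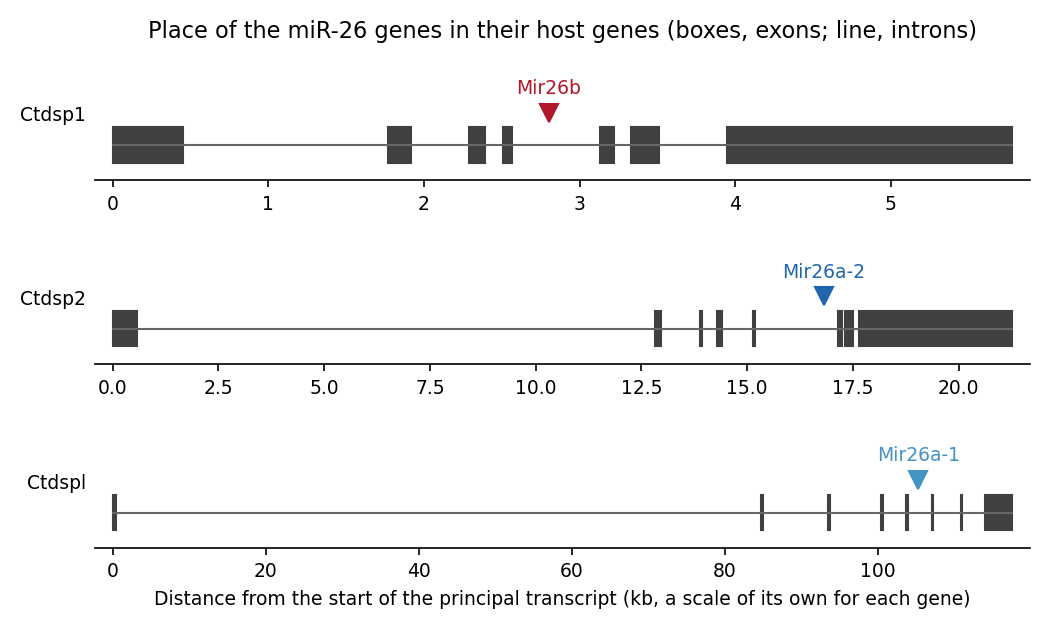
Exons (boxes) and introns (line) of the principal transcripts of Ctdsp1, Ctdsp2 and Ctdspl against the distance from the transcript start in kb, with a scale of its own for each gene and a triangle at each miR-26 gene. Mir26b lies in intron 4, and Mir26a-2 and Mir26a-1 each lie in intron 5.

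Counts are raw reads on the sense strand. CPM expresses them per 1000000 sense reads on all miRNA genes, which came to 3172235 in replicate 1 and 3671915 in replicate 2. Reads that fit several positions made up 32.4% of replicate 1 and 33.3% of replicate 2 and were counted for no gene. The floor that 3 counts set for a gene without reads was 0.946 CPM (replicate 1) and 0.817 CPM (replicate 2). Intervals below are exact 95% intervals and, like these limits, cover counting error only, since no molecular identifiers are stated. The 6 miRNA genes taken as marks of the neural tube, Mir10a, Mir10b, Mir137, Mir196b, Mir92b and Mir135b, were all detected, at a summed 425191 CPM in replicate 1 and 376050 CPM in replicate 2. Most of both sums was Mir10a, at 165757 and 161705 CPM, and Mir10b, at 237385 and 194873 CPM. Whether these genes are particular to the neural tube was not tested.

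Mir26b was the member that held nearly all of the family's counts. It had 26157 counts in replicate 1 and 33902 in replicate 2, which is 8246 CPM (95% interval 8146 to 8346) and 9233 CPM (9135 to 9332). Its mean was 8739 ± 698 CPM (SD, n = 2), or 0.874% of all miRNA counts, and it ranked 18 among the 1973 genes. Both libraries placed it close to that rank, at 18 in replicate 1 and 17 in replicate 2.

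Replicate 1 held 47 counts of Mir26a-2 and replicate 2 held 84. These were 14.8 CPM (10.9 to 19.7) and 22.9 CPM (18.2 to 28.3), with a mean of 18.9 ± 5.70 CPM (SD, n = 2) and rank 273. Mir26a-1 had 24 counts in replicate 1 and 26 in replicate 2. These were 7.57 CPM (4.85 to 11.3) and 7.08 CPM (4.62 to 10.4), with a mean of 7.32 ± 0.343 CPM and rank 306. Both copies passed the detection minimum of 10 counts in both libraries, as did 329 genes in all. The 3 genes had 0 counts on the other strand in both libraries.

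**Figure D2:**
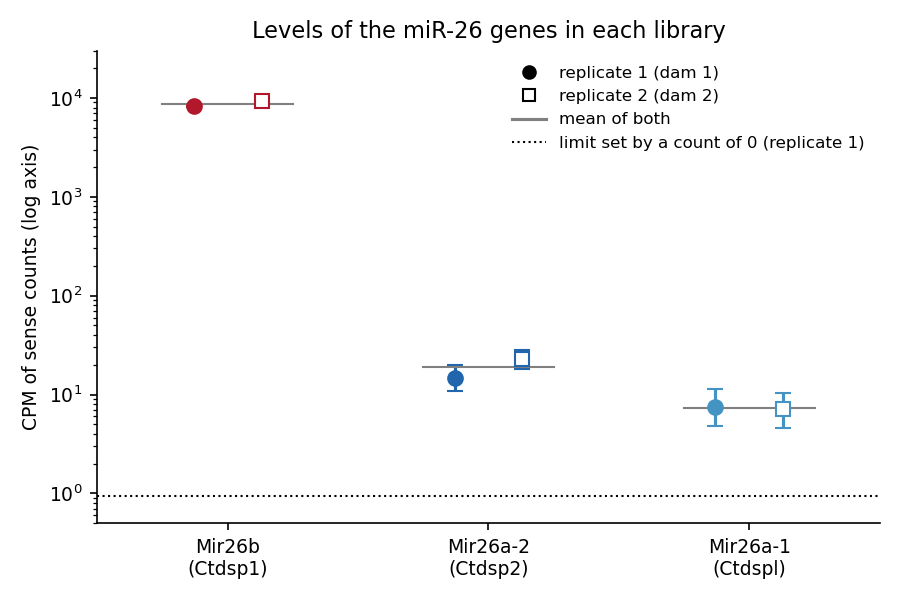
CPM of sense counts (log axis) of each miR-26 gene in replicate 1 (filled circles) and replicate 2 (open squares), with exact 95% counting intervals, the mean of both (grey line) and, dotted, the floor of replicate 1 for a gene without reads. Mir26b sits at 8246 and 9233 CPM, Mir26a-2 at 14.8 and 22.9 CPM, and Mir26a-1 at 7.57 and 7.08 CPM.

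The order of the members was the same in both libraries. Mir26b made up 99.7% of the family's counts in replicate 1 (99.7 to 99.8) and in replicate 2 (99.6 to 99.7). It exceeded Mir26a-2 by 557-fold in replicate 1 (418 to 758) and 404-fold in replicate 2 (326 to 506), and Mir26a-1 by 1090-fold (732 to 1701) and 1304-fold (890 to 1996). Mir26a-2 exceeded Mir26a-1 by 1.96-fold in replicate 1 (1.17 to 3.35) and 3.23-fold in replicate 2 (2.06 to 5.23). The CPM values of neighbours in this order did not overlap, which says little with 2 libraries. In replicate 1 the counting intervals of Mir26a-2 (10.9 to 19.7 CPM) and Mir26a-1 (4.85 to 11.3 CPM) overlapped. The order is that of reads at single positions. The reads of miR-26a-5p that fit both Mir26a loci are in neither count, and their number was not analysed here, so it gives no order of the mature miRNAs. Which arm of a hairpin a count came from is not recorded in the tables.

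Between the libraries, none of the 3 members reached a 2-fold difference. Of the 360 genes compared, 44 (12.2%) did, 16 (4.44%) higher in replicate 1 and 28 (7.78%) higher in replicate 2. Ratios are replicate 1 over replicate 2 of counts scaled by edgeR's TMM factors (trimmed mean of M-values). Mir26b had a log2 ratio of 0.05 (0.03 to 0.07), a 1.04-fold ratio, and 8.06% of the genes compared had a smaller absolute ratio. This direction turned with scaling by total counts, to a log2 ratio of -0.16, in the direction of the CPM values. That scaling moved every ratio, with a median shift of -0.21 on the log2 scale. Mir26a-2 had a log2 ratio of -0.41 (-0.96 to 0.12) and Mir26a-1 one of 0.30 (-0.56 to 1.17), both with intervals that include 0. Summed, the Mir26a copies had 71 counts in replicate 1 and 110 in replicate 2, with a log2 ratio of -0.21 (-0.66 to 0.24). At this depth no difference was detectable for Mir26a-1, whose interval runs from a ratio of 0.681 to one of 2.24. The median absolute log2 ratio over all genes compared was 0.29.

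**Figure D3:**
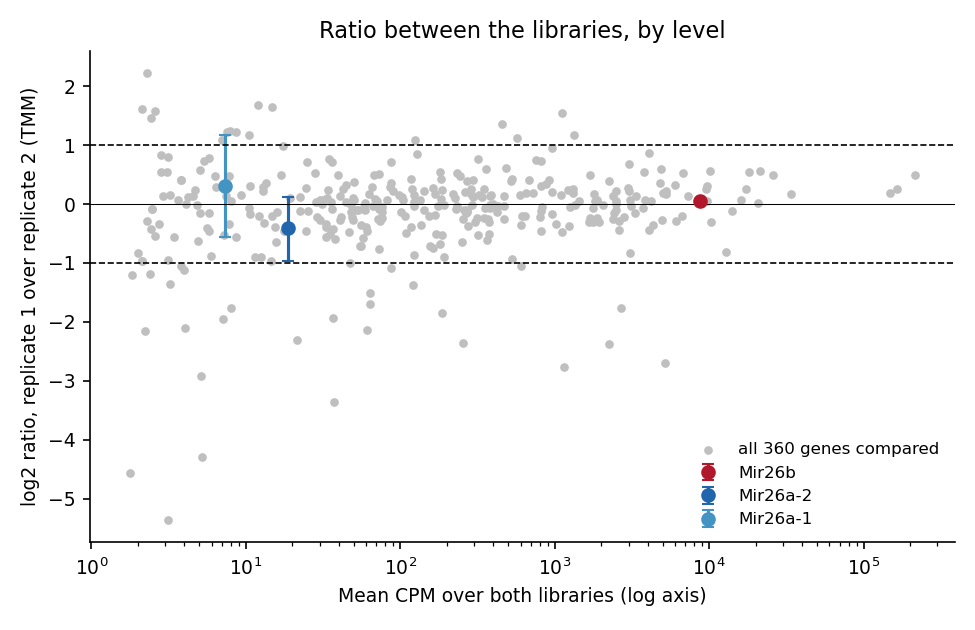
Log2 ratio of replicate 1 over replicate 2 after TMM scaling against the mean CPM (log axis) for the 360 genes compared (grey) and the miR-26 genes (colour, with exact 95% counting intervals), with dashed lines at 2-fold. Mir26b lies at 0.05, Mir26a-2 at -0.41 and Mir26a-1 at 0.30, all between the dashed lines.

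The libraries were not alike in markers of other cell types. The mesenchyme and cartilage list, with 5 of 7 genes detected in both libraries and none at 0 in both, had a sum of 3502 CPM in replicate 1, against 7561 CPM in replicate 2. Of its 6 genes compared, 5 were past 2-fold higher in replicate 2, against 28 (7.78%) of all 360 compared. The median log2 ratio was -2.06 over the 6 and -0.02 over all genes compared. Mir140 was not past 2-fold, at 2305 and 2666 CPM and a log2 ratio of 0.00. The 5 are not all separate loci, as Mir143 and Mir145a lie close together on chromosome 18 and Mir199a-2 and Mir214 on chromosome 1. Mir199a-2 had 1 count in replicate 1 and 37 in replicate 2. All mature miRNAs of Mir199a-2 and of Mir199b are identical to one of another gene, and reads that fit several positions are in neither count. The blood and endothelium list, with 6 of 6 detected, had sums of 8609 CPM in replicate 1 and 17552 CPM in replicate 2. Nearly all of both sums was the endothelial Mir126a, at 8443 and 17271 CPM. Its log2 ratio was -0.82 (-0.84 to -0.80), not past 2-fold, but -1.03 with scaling by total counts. Among the other genes of the list, Mir486 was past 2-fold higher in replicate 1 and Mir223 past 2-fold higher in replicate 2. The intervals of Mir451a, Mir144 and Mir150 included a log2 ratio of 0. The miR-26 family had a sum of 8268 CPM in replicate 1, against 9263 CPM in replicate 2, a mean of 8765 ± 703 CPM. Nearly all of that sum was Mir26b, and reads that fit several positions are not in it. CPM is scaled by total counts. After TMM scaling the log2 ratio of the family sum was 0.05 (0.03 to 0.07), slightly higher in replicate 1. The part of other cell types in the miR-26 levels was not tested, and fewer cells of a type cannot be told apart here from less RNA per cell.

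Families whose copies also lie in introns of related host genes were set beside miR-26. In the family of miR-103 and miR-107 in the Pank genes, which encode pantothenate kinases, Mir107 in Pank1 has mature sequences of its own. Mir103-2 in Pank2 and Mir103-1 in Pank3 share 1 identical mature miRNA. Mir107 had 4149 counts in replicate 1 and 4900 in replicate 2, Mir103-2 had 85 and 145, and Mir103-1 had 7 and 12. Mir107 thus exceeded Mir103-2 by 48.8-fold in replicate 1 and 33.8-fold in replicate 2, so that, as in the miR-26 family, the gene with unique mature sequences held nearly all of the counts at single positions.

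The other families had no such gene. In miR-218, whose hosts Slit2 and Slit3 encode axon guidance ligands, Mir218-2 in Slit3 had 851 and 1152 counts and Mir218-1 in Slit2 had 136 and 153, in replicates 1 and 2. In miR-128, a neuronal family, Mir128-1 in R3hdm1 had 5554 and 3291 counts and Mir128-2 in Arpp21 had 2370 and 1453. These 4 genes, each with 1 mature miRNA identical to that of its copy, had between 136 and 5554 counts a library, against 24 to 84 for the Mir26a copies. Both miR-128 genes passed 2-fold, higher in replicate 1 at log2 ratios of 1.18 and 1.13, but at 0.97 and 0.92 with scaling by total counts. Of all 360 genes compared, 16 (4.44%) passed 2-fold higher in replicate 1. None of the miR-26, Pank or Slit miRNA genes passed 2-fold in either direction, against 44 (12.2%) of all 360 genes compared. With so few genes, none past 2-fold is near that share. The median log2 ratio was 0.05 for miR-26, -0.34 for the Pank family, 0.12 for miR-218 and -0.02 over all genes compared.

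**Figure D4:**
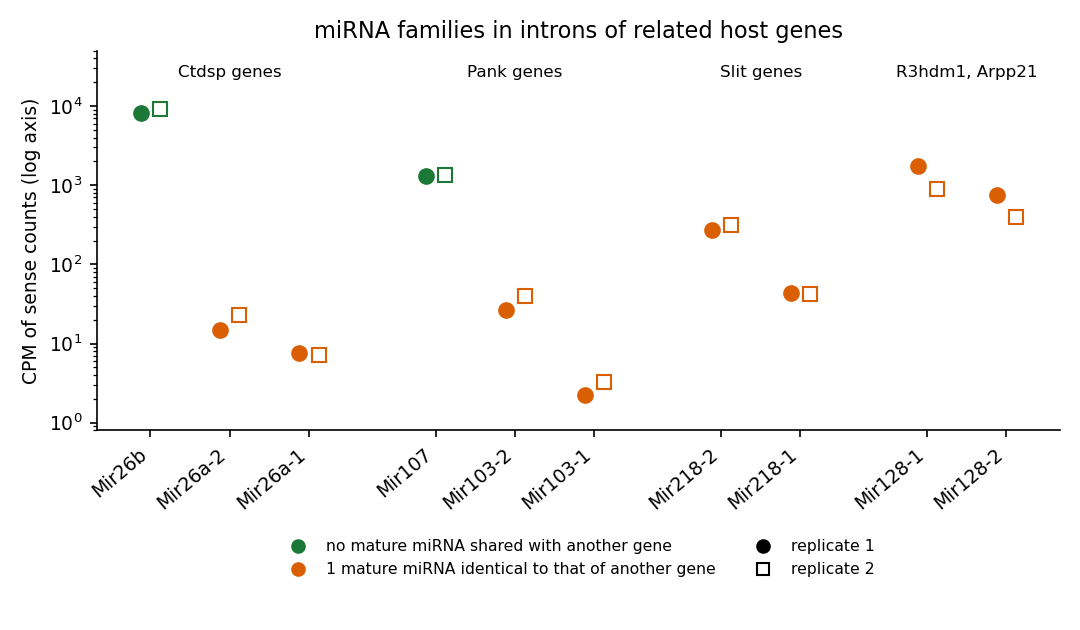
CPM of sense counts (log axis) of miRNA genes in introns of related host genes, in replicate 1 (filled circles) and replicate 2 (open squares), with genes that share an identical mature miRNA with another gene in orange and genes that share none in green. Mir26b and Mir107 are the green genes and the highest of their families in both libraries.

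MiRNA genes tied to REST were listed as a pathway. MiR-9 acts on Rest, miR-124 is a neuronal miRNA under REST control that acts on Ctdsp1, and miR-132 and miR-212 come from 1 locus that REST also represses. Of the 8 genes listed, 7 had a value, Mir9-1 was not analysed here, and 4 were detected in both libraries. Mir132 had 892 CPM in replicate 1 and 620 CPM in replicate 2, Mir9-3 had 549 and 486 CPM, and Mir212 had 47.6 and 52.8 CPM. The summed level of the list was 1500 and 1171 CPM, below that of Mir26b alone in both libraries. This compares reads at single positions and gives no order of the mature miRNAs, since Mir26b shares no mature miRNA with another gene. Mir124a-1, Mir124a-2 and Mir124a-3 had 21, 4 and 7 counts in replicate 1 and 23, 13 and 5 in replicate 2, and Mir9-2 had 5 and 4. Mir9-2 and Mir9-3 share both of their mature miRNAs with another gene, while the Mir26a copies share only the 5p miRNA. For the Mir124a genes the sharing of mature miRNAs was not analysed here. Reads that fit several positions are in none of these counts. Of the 5 genes of the list compared, 1 passed 2-fold, against 44 (12.2%) of all 360 genes compared. It was Mir124a-2, higher in replicate 2 on 4 and 13 counts with an interval of the log2 ratio from -3.35 to 0.42. The median log2 ratio was 0.29 for the list and -0.02 over all genes compared.

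The genes closest to each member in level over the 2 libraries were taken as those with the smallest larger difference of log2(CPM + 1). For Mir26b these were Mir181c, with 9110 and 10216 CPM, a largest difference of 0.15, then Mir137 at 0.22 and Mir615 at 0.27. For Mir26a-2 they were Gm23450, with 14.8 and 23.4 CPM, Mir544 and Mir8114. For Mir26a-1 they were Mir344e, with 7.25 and 7.63 CPM, Mir3066 and Mir124a-1. With 2 libraries of 1 group this likeness describes levels only.

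Sites for the 5p seed were read in the 3′ UTRs of the phosphatase genes, of Rest and of Ezh2, a histone methyltransferase gene known as a miR-26a target. The motif was TACTTGA, the reverse complement of the seed, or TACTTGAA, which contains it and adds the A that faces base 1, searched on the transcript strand of 1 GENCODE M21 transcript per gene. These are descriptions of sequence, since no messenger RNA was measured.
Ctdsp2, 3′ UTR base 1080: ccaagtgttgctctTACTTGAtttgccaa
Ctdspl2, 3′ UTR base 2115: aattgttgacaatgTACTTGAtcaggaat
Rest, 3′ UTR base 349: ttggcttagtaaatTACTTGAagaatttg
Ezh2, 3′ UTR base 248: atttgaataaagaaTACTTGAacttgttg

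Capitals mark the 7-base motif. Of the host genes, Ctdsp2, the host of Mir26a-2, had 1 match in 3483 bases, while the 1701 bases of Ctdsp1 and the 3349 bases of Ctdspl held none. Ctdspl2, a relative that hosts no miR-26 gene, also had 1. Of 3′ UTRs within 20% of the length of that of Ctdsp2, 22.9% held the motif, against 9.12% of all 21010. The share at like length was 19.8% for Ctdspl2, 22.4% for Ctdspl and 11.5% for Ctdsp1. Rest and Ezh2 each had 1 match, of the 8-base form. That form occurred in 10.4% of 3′ UTRs within 20% of the length of that of Rest and in 1.45% of those within 20% of the length of that of Ezh2, which is 402 bases long.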

How the data were processed

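The authors deposited 1 table of raw counts per library, with reads per miRNA gene on either strand, the sense strand and the other strand, without normalization. Reads had been aligned to mm10 and assigned with annotation M4, per the text note beside each table. Which aligner, trimming and filters were used is not given in the sources used. The 4 rows that name no gene stayed out of library sizes. They hold the reads at several positions (32.4% of reads in replicate 1, 33.3% in replicate 2), unmapped reads (11.5% and 11.8%), reads on no gene (2.75% and 3.01%) and ambiguous reads (0).

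Sense counts were used, and CPM was computed from their total. Of 1973 identifiers, 1894 matched GENCODE M21 (GRCm38). Genes that reached 10 counts in either library were compared. Their ratios used a prior count of 0.5 and TMM factors from edgeR 4.0.16 (R 4.3.3), with a 2-fold threshold. No residual degrees of freedom were left, so no test was run. Ratios and shares have exact 95% binomial intervals and CPM values exact Poisson intervals (scipy 1.17.1). The ratio procedure was tested on simulated data that held counting error only. Those data had no further variation between libraries, so the test does not cover such variation. Sequences are from RefSeq (GRCm38.p6), whose table had mature miRNAs for 916 of the genes. Hairpins were aligned with biopython 1.88. Python 3.11.15, numpy 2.4.6, pandas 2.3.3 and matplotlib 3.10.9 were used. The libraries differed beyond counting error, with a chi-square per degree of freedom of 318 over the genes detected in both, scaled by total counts. The source of the difference was not tested.

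Genes named are the members, the genes of the REST, miR-103 and miR-107, miR-218 and miR-128 lists, the 3 genes nearest each member in level and genes that share a seed. Marker genes of the neural tube and of other cell types are given as sums, with single genes named beside them. The members and lists were chosen with earlier results of these data known. Alternatives changed the denominator, scaling, filter, prior count, strand column, fold and libraries used.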

Additional observations from a re-analysis of the deposited data

How the results depend on the processing

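Of 116 recomputed values, 90 stayed within the limit set for the reported one. That limit was the SD for levels and shares, and the counting interval for ratios. For ranks it was the larger of the SD and 1, and for counts past the fold a factor of 1.5. With a library left out, levels and shares were bound to stay within the SD. Shares were also bound to stay with counts on either strand, since the members had none on the other strand. Part of the 90 was thus fixed in advance. With all reads as the denominator, the mean CPM was 3.86 for Mir26a-1, 9.89 for Mir26a-2, 4597 for Mir26b and 4611 for the family sum. Without the highest gene in the denominator, it was 9.36 for Mir26a-1, 11140 for Mir26b and 11173 for the family. The log2 ratio of Mir26b was -0.163 when libraries were scaled by their totals, 0.011 with the upper quartile and 0.015 without a filter, and that of the family sum was -0.164, 0.010 and 0.014. With 1 library left out, the rank of Mir26a-1 ran between 299 and 305 and that of Mir26a-2 between 271 and 273. With counts on either strand these ranks were 317 and 284. Genes past 2-fold numbered 16 higher in replicate 1 and 28 higher in replicate 2. They numbered 89 and 139 without a filter, 5 and 16 with a filter of 100 counts, and 35 and 53 with a fold of 1.5. With a filter of 100 counts, 0 genes of the REST list passed 2-fold, since Mir124a-2 was not among those compared. When libraries were scaled by their totals, the miR-128 genes had a median log2 ratio of 0.94 and 0 passed 2-fold. The filter of 100 counts left Mir26a-1 and Mir26a-2 without a ratio. No paired analysis was possible because the libraries form 1 group. Depth limits the ratios of the Mir26a copies, with 24 to 84 counts a library, and not that of Mir26b.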

Other observations

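Over all genes in the RefSeq table, those of which some but not all mature miRNAs are identical to one of another gene, as in the Mir26a copies, were looked at as a class, chosen after the miR-26 values were seen. Of these 53 genes, 36 had at least 10 counts in each library, and the median of the mean level over all 53 was 35.2 CPM. Detection was 67.9% in this class, 31.4% among the 829 genes whose mature miRNAs are all unique, with a median of 0.408 CPM, and 17.6% among the 34 whose mature miRNAs are all shared, with a median of 0 CPM. Of the 53 partly shared genes, 30 lay above Mir26a-2 and 35 above Mir26a-1. For 51 of the genes the bases after the shared miRNA could be compared with those of the copies. Where 0 or 1 of these bases also matched (32 genes), the median level was 133 CPM, with a range of 0 to 1786 CPM. Where 2 or more matched (19 genes, the Mir26a copies with 3 among them), it was 1.99 CPM, with a range of 0 to 3128 CPM, and among the 15 genes with 3 or more it was 7.44 CPM. Mir181a-1, with 4 matching bases, was the highest of all at 3128 CPM. These levels are a description. The genes differ in expression as well as in sequence, copies of 1 family are not independent, and the class with 2 or more matching bases holds few genes.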
